A study of Microtus ochrogaster with 23 samples.

Results

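Gpr39 encodes a G protein-coupled receptor of the ghrelin receptor family that is activated by extracellular zinc. The methylation of its locus was examined in the dentate gyrus of prairie voles, at every cytosine read in at least 1 of 23 animals between 5 kb before and 5 kb after the gene. The window held 310 of the 4051749 cytosines read in the whole series. The gene spans 4841487 to 5039959 on chromosome 6 (MicOch1.0, RefSeq gene span), a length of 198473 bp, and 283 of the 310 cytosines lay inside it, 2 before its low-coordinate end and 25 past its high-coordinate end. The strand and exons of the gene are not given in the sources used here, so positions are stated as distances from the low-coordinate end. Gpr39 was chosen for its differentially methylated region (DMR) between “Attacker” and “Father” males. Values of that comparison are therefore given as a description, without a test.

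The 4 groups were adult wild-type voles that had been exposed to a pup. “Attacker” males (6 animals) were virgins that attacked the pup, and “Parental” males (6 animals) were virgins that cared for it. “Father” males (5 animals) and “Mother” females (6 animals) were pair-bonded parents. All “Mother” animals were female and all others male, so sex and group cannot be told apart in “Father” vs “Mother”. The dentate gyrus was taken as tissue punches, which hold several cell types, so a level can differ because the mix of cells or the methylation of 1 cell type differs, and these cannot be told apart. Each animal gave 1 reduced representation bisulfite sequencing (RRBS) library. RRBS reads fragments cut by MspI and reports, at each CpG cytosine, how many reads were methylated.

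Zinc is stored with glutamate in the mossy fibre terminals of dentate granule cells and is released on activity. At the postsynaptic side, GPR39 senses this zinc, couples mainly through Gq to phospholipase C and calcium release, and is known to raise the activity of the potassium-chloride cotransporter KCC2, the product of Slc12a5. CpG methylation in a gene can differ strongly between its start, its body and the sequence past its end. No sequence of the locus is shown, since the sources used here hold gene spans only.

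RRBS sampled Gpr39 thinly and unevenly. The median cytosine of the window was read in 4 of 23 animals, against 10 over all cytosines of the series. Only 4 cytosines of the window, 1.29%, were read in every animal, against 21% in the series, and 82 (26.5%, against 19.1%) were read in a single animal. The median number of reads, where an animal had any, was 15 in the window and 26 in the series. Animals had reads at 66 to 152 cytosines of the window (median 98), with 1160 to 3630 calls. The median animal had reads at 98 cytosines in “Attacker”, 113.5 in “Parental”, 89 in “Father” and 88 in “Mother”, and the ranges of all groups overlapped. As a group, “Attacker” and “Parental” animals each covered 225 of the cytosines, “Father” animals 190 and “Mother” animals 196. Whole libraries held 64896224 to 129376223 calls, with a median depth of 19 to 43 reads per cytosine.

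**Figure D1:**
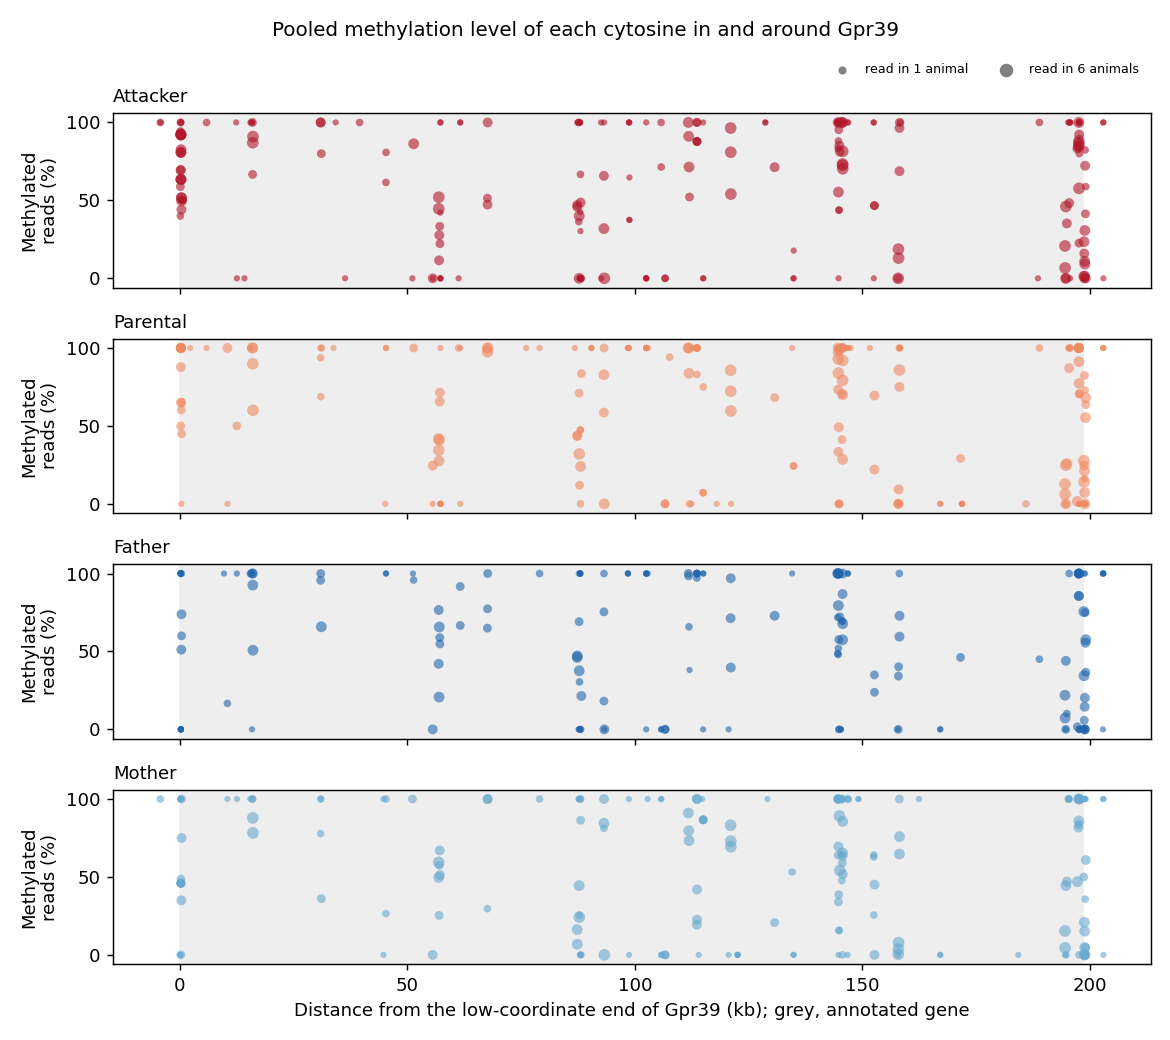
Share of methylated reads (%, all reads of a group pooled) at each cytosine of the window against its distance in kb from the low-coordinate end of Gpr39, with 1 panel per group. The size of a point gives the number of animals with reads, and the grey band is the annotated gene; cytosines near 0% and near 100% lie side by side along the gene in each group.

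The locus was methylated at intermediate levels. Pooled over the window, the share of methylated reads ran from 40.2% to 72.1% in the 6 “Attacker” animals (median 57.7%) and from 47.2% to 61.9% in the 6 “Parental” (median 52.1%). It ran from 45.8% to 60.2% in the 5 “Father” animals (median 50.9%) and from 42.6% to 49.7% in the 6 “Mother” (median 45.9%). All 4 ranges overlapped. These shares mix different cytosines in different animals, because coverage differed.

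Single cytosines of Gpr39 in single animals were mostly all-or-none, but less often than over the whole series. Of 1490 values with at least 10 reads in an animal, 26.8% were at 0% and 47.4% at 100%. Together these were 74.2%, against 85.3% in the series, and 16.9% lay between 20% and 80%, against 8.35%. Over the whole series 71.6% were at 0% and 13.7% at 100%, so that Gpr39 lay toward the methylated side. Many cytosines swung between the extremes: 91 of 166 (54.8%) were at 0% in at least 1 animal and at 100% in another, against 19.7% in the series. The series is mostly at 0%, so cytosines with a pooled level of 20% to 80% and at least 5 animals with 10 reads are the nearer comparison, and there the shares were 90.2% (46 of 51) and 77.1%. Among the same cytosines, 61.3% of the animals’ values in Gpr39 (51 cytosines) were at 0% or 100%, against 49.1% in the series (382357 cytosines). Depth was not matched in this comparison, and the median number of reads, over all cytosines where an animal had any, was 15 in the window and 26 in the series. Molecular identifiers are not given in the sources used here, so 15 reads with 1 state may be copies of fewer molecules, and intervals from read counts cover counting error only.

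The cytosines on both strands of a CpG often disagreed within an animal. In 49 pairs of cytosines at neighbouring positions, taken here as both strands of a CpG, there were 187 values where an animal had at least 5 reads on each side. In 36 of them (19.3%) the levels were at least 80 percentage points apart, against 1.40% in the series. Because most values of the series were at 0%, the pairs with pooled levels of 20% to 80% are the nearer comparison, and there 19.3% of 83 values in Gpr39 and 10.4% in the series were that far apart. These shares are descriptions over values that share animals and fragments, and depth was not matched between Gpr39 and the series.

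Some cytosines were alike in every animal. Of 67 cytosines with at least 10 reads in 10 or more animals, 48 spanned over 80 percentage points between animals and 7 spanned under 20. These counts were not made over the whole series, so they do not say whether Gpr39 is unusual. Chosen after their values were seen, 2 of the 7 stand for the unmethylated side: the cytosine 93317 bp into the gene was at 0% in all 20 animals (10 to 98 reads), and the cytosine 157883 bp into it was at 0% in 16 of 17 animals with at most 3.45%. The other 5 were above 80% in every animal, such as the cytosine 67686 bp into the gene, at 100% in all 14 animals with 10 to 53 reads.

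The “Attacker” vs “Father” DMR lies 242 to 306 bp inside the low-coordinate end of Gpr39, where the gene abuts Lypd1. It covers 4841729 to 4841793 on chromosome 6, a stretch of 65 bp with 13 cytosines, of which 7 were differentially methylated cytosines (DMCs). In the DSS test a cytosine counted as a DMC where its probability score for a difference over 15% stayed under 0.05. All 7 were higher in “Attacker”. They were read in 5 “Attacker” animals and in 1 “Father” animal. “Attacker” 2, 3 and 4 were at 100% of 15, 7 and 3 reads at each of the 7 cytosines. “Attacker” 5 was at 87.5% over its 559 calls there, and “Attacker” 6 at 92.5% over 159 calls. “Father” 5 was at 0 of 13 reads at each of the 7, for which the Wilson 95% interval of a single cytosine reaches up to 22.8%. The other 4 “Father” animals had no read there, so without “Father” 5 these cytosines could not be compared. The fitted difference was 83.1 ± 20.3 percentage points (SE) at 242 bp and 70.4 ± 24.02 at 306 bp. In these SEs the spread between “Father” animals came from the genome-wide prior of the test, because only 1 had reads.

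The remaining groups split at the same 7 cytosines. “Parental” 3 and 6 were at 100% of 15 reads at each, and “Parental” 4 and 5, with 20 and 7 reads, were at 100% at 6 of the 7 and at 0% at the other. “Mother” 2 was at 100% of 17 reads at 6 cytosines and at 0 of 17 at the other, 251 bp into the gene. “Mother” 6 was at 0 of 19 reads at all 7, like “Father” 5, and “Mother” 3 had 1 read, methylated at 1 of the 7. Of 13 animals with reads there, the level was thus 0% in 1 “Father” and 1 “Mother” and over 85% in 10 others, the exception being the single read of “Mother” 3.

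On the opposite strand of the same CpGs the picture differed. Taking the cytosine at the next higher position as the partner, 6 cytosines of the interval were read in 5 “Attacker”, 3 “Parental”, 1 “Father” and 1 “Mother” animal. “Attacker” 5 and 6 were at 100% at all 6, with 9 to 17 reads. “Attacker” 3 was at 0 of 8 reads at the 4 it covered, “Attacker” 4 at 0 of 2 reads at all 6, and “Attacker” 1, with 9 reads, at 0% at 4 and at 100% at 2. Pooled, the “Attacker” level was 71.4% of 280 calls here and 90.8% of 893 calls at the 7 DMCs. The “Father” animal with reads was “Father” 4, methylated at all 6 with 1 read, and “Mother” 4 was at 100% of 8 reads. In “Attacker” 3 and 4 the strands were therefore at opposite extremes. None of these 6 cytosines was a DMC, and with both strands merged the whole window had 5 “Attacker” vs “Father” DMCs in place of 11.

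**Figure D2:**
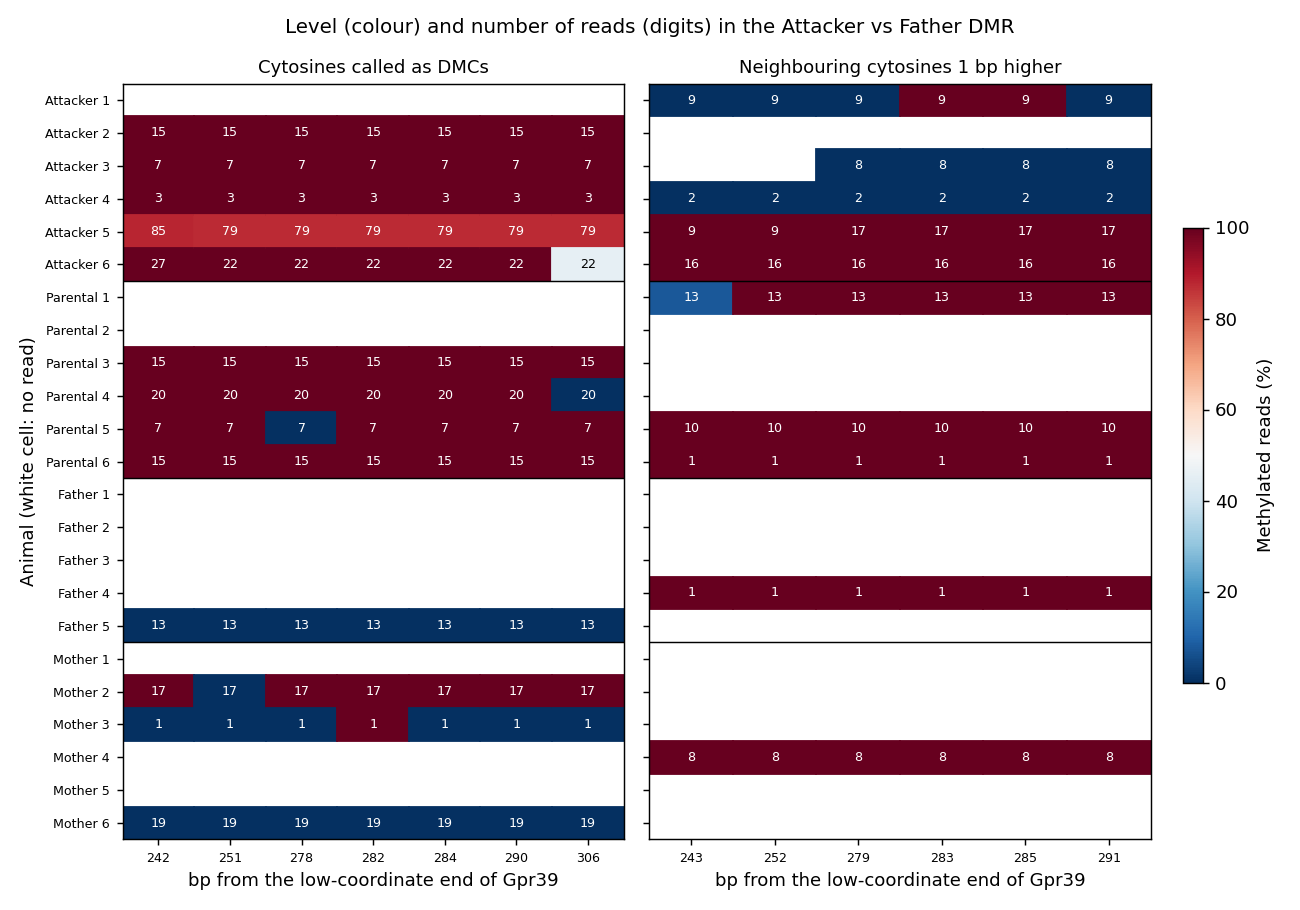
Level (colour, % methylated reads) and number of reads (digits) of each animal at the 13 cytosines of the DMR, with the 7 DMCs on the left and their neighbours 1 bp higher on the right; the horizontal axis gives bp from the low-coordinate end and white cells had no read. The “Father” rows hold reads of “Father” 5 on the left and of “Father” 4 on the right.

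The DMR is part of a cluster of 26 cytosines 159 to 421 bp into the gene, and the 13 cytosines of the cluster outside the DMR were read in more “Father” animals. There “Father” 1 was at 66.7% of 63 calls, “Father” 2 at 0% of 24, “Father” 3 at 100% of 2, “Father” 4 at 99% of 100 and “Father” 5 at 46.2% of 78. The 5 “Attacker” animals with reads were at 30.8%, 0%, 42.0%, 94.2% and 97.6%, from 13 to 331 calls. Pooled levels were 53.2% in “Attacker”, 66.96% in “Parental”, 67.04% in “Father” and 65.8% in “Mother”. “Attacker” and “Father” overlapped over nearly their whole range, from 0% to 97.6% and from 0% to 100%.

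In “Attacker” vs “Father”, 163 cytosines of the window could be compared and 11 were DMCs, 10 of them higher in “Attacker”. Over the genome 0.983% of cytosines were DMCs, 0.604% were DMCs higher in “Attacker” and 0.379% DMCs lower in “Attacker”. The gene was chosen on this contrast, so nothing is read from the difference. Beside the 7 of the DMR, “Attacker” was higher at 87694 and 87717 bp (in each case with 36 reads of “Attacker” 3 and 5, all methylated, and 14 reads of “Father” 1, none methylated) and at 197657 bp. It was lower at 198653 bp, which lies past the high-coordinate end. There 4 “Attacker” animals were at 0% of 5 to 31 reads and “Attacker” 6 was at 1 of 10, while “Father” 1, 4 and 5 were at 100% of 15, 8 and 31 reads, “Father” 3 was at 14 of 22 and “Father” 2 at 0 of 14. “Parental” animals lay between 0% and 63.0% at that cytosine. The probability score was 0.0355 at 198653 bp and 0.037 at 197657 bp, just inside the threshold, and 0.0524 and 0.0672 at the nearest cytosines outside it, 197593 and 197252 bp into the gene. Of the 11 DMCs, 9 rested on 1 animal in 1 of the groups, as did 60.5% of DMCs over the genome. Without “Father” 5 there were 10 DMCs, of which 3 were among the 11 and 7 were other cytosines of the window.

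“Attacker” vs “Parental” asks how the virgin males that attacked pups differ from those that cared for them. Gpr39 had 3 DMCs among 175 cytosines compared (1.71%), all lower in “Attacker”, against 0.809% over the genome. DMCs lower in “Attacker” were 0.337% of all cytosines and DMCs higher in “Attacker” 0.471%. At 61303 bp “Attacker” 6 was at 0 of 4 reads, and “Parental” 2 and 3 were at 100% of 10 and 11 reads. At 88263 bp “Attacker” 2 and 5 were at 0 of 8 and 0 of 7 reads, “Parental” 3 and 4 at 100% of 23 and 17 reads and “Parental” 1 at 21 of 33. At 195628 bp “Attacker” 3 was at 0 of 8 reads, and “Parental” 3 and 5 were at 100% of 24 and 8. That “Attacker” and “Parental” values did not overlap at these 3 cytosines follows largely from the call as DMCs, so nothing is read from it. Each rests on at most 2 “Attacker” animals, and none was past an adjusted p of 0.05 over all cytosines in the DSS test (0.0275% over the genome). With an unadjusted p under 0.05 there were 4, or 2.29%, against 1.02%. The DMC count rose to 5, 6, 7, 8 and 9 without “Attacker” 1, “Attacker” 2, “Attacker” 5, “Attacker” 6 and “Parental” 6, in that order.

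The low-coordinate DMR did not separate the virgin males. At its 7 DMCs, which were called for a high “Attacker” level, the pooled level was 90.8% in “Attacker” and 93.2% in “Parental”. On the opposite strand it was 71.4% of 280 calls in 5 “Attacker” animals and 91.7% of 144 in 3 “Parental”. Animals there ranged from 0% to 100% in “Attacker” and from 84.6% to 100% in “Parental”, which overlapped. None of the 13 cytosines of the interval was a DMC in this comparison.

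“Parental” vs “Father” compares virgin and pair-bonded males that both care for pups. Here 8 of 160 cytosines were DMCs, 5.00% against 1.21% over the genome, with 7 higher in “Parental” (0.644% over the genome) and 1 lower (0.562%). Of these, 5 lay in the low-coordinate DMR, at 242, 251, 282, 284 and 290 bp. They rest on the same 13 unmethylated reads of “Father” 5 that define the DMR, and both comparisons share the “Father” animals, so they are no second observation of it. Their fitted difference was 85.9 ± 19.5 percentage points (SE), in which the spread between “Father” animals came from the prior because only 1 had reads. They were the 5 cytosines of the window past an adjusted p of 0.05 over all cytosines in the DSS test, 3.12% against 0.0930% over the genome. All 8 DMCs had an unadjusted p under 0.05 (1.51% over the genome). The 5 of the DMR carry the reads of “Father” 5 for which the gene was chosen, so their p-values are no test. Nothing is therefore read from the 5.00%, or from the shares past these thresholds, against the genome shares. The DMC count fell to 4 without “Father” 5.

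The other 3 “Parental” vs “Father” DMCs lay elsewhere. At 102515 bp “Parental” 3 was at 100% of 18 reads and “Father” 3 at 0 of 13. At 198807 bp, past the gene, “Parental” 1 and 2 were at 100% of 7 and 3 reads, “Parental” 6 at 4 of 7 and “Father” 1 at 0 of 5. The cytosine 145658 bp into the gene was the best covered, with 5 “Parental” and 4 “Father” animals. “Parental” 2 and 6 were there at 0 of 8 and 0 of 13 reads, “Parental” 3 at 11 of 30, “Parental” 4 at 8 of 18 and “Parental” 5 at 1 of 1. “Father” 3 and 5 were at 100% of 9 and 15 reads, “Father” 2 at 34 of 39 and “Father” 4 at 8 of 13. Apart from the single read of “Parental” 5 the “Parental” values lay below the “Father” values, which follows largely from the call as a DMC. The fitted difference was -54.6 ± 22.3 percentage points (SE), with an unadjusted p of 0.0145 and an adjusted p of 1.0 over all cytosines in the DSS test. All 6 “Attacker” animals had reads there and were at 51.1% to 100%, and 5 “Mother” animals ranged from 0% to 100%.

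In “Father” vs “Mother”, 3 of 151 cytosines were DMCs (1.99%, against 1.21% over the genome), 2 of them lower in “Father” (0.487% over the genome) and 1 higher (0.727%). “Mother” 5 and 6 were at 100% of 14 and 16 reads at 197657 and 197672 bp, where “Father” 2 and 3 were at 0 of 1 and 0 of 2. At 198953 bp, past the gene, “Father” 1 was at 100% of 24 reads and “Mother” 3 at 0 of 12. The first pair therefore rests on 3 “Father” reads. No cytosine was past an adjusted p of 0.05 over all cytosines in the DSS test (0.0946% over the genome), and 4 had an unadjusted p under 0.05 (1.55%). The DMC count was 1 without “Father” 3 and 5 without any of “Father” 4, “Father” 5, “Mother” 1, “Mother” 3 or “Mother” 4. At the DMR of the low-coordinate end the 3 “Mother” animals with reads ranged from 0% to 85.7% and no cytosine was a DMC.

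**Figure D3:**
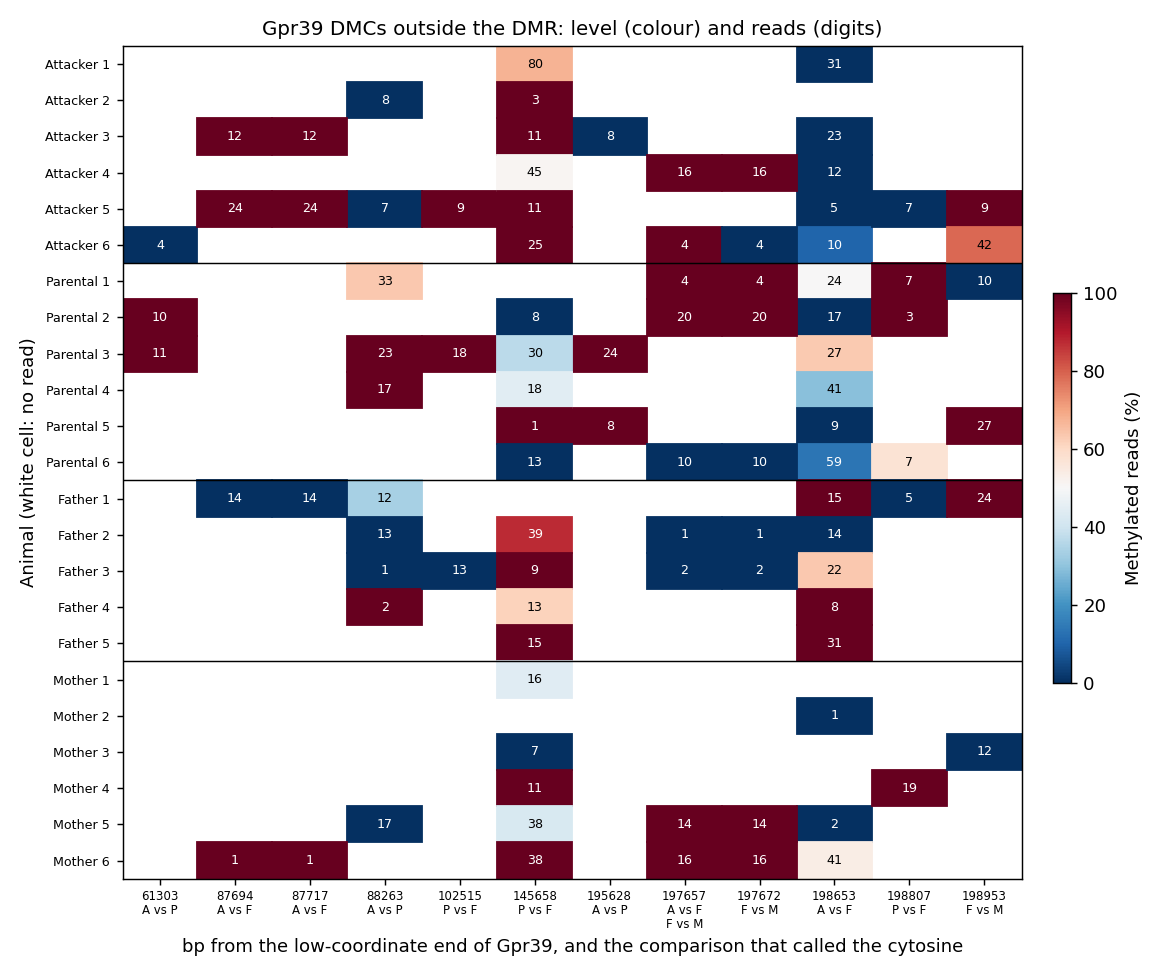
Level (colour, % methylated reads) and number of reads (digits) of each animal at the 12 DMCs of the window outside the DMR, labelled with bp from the low-coordinate end and the comparison that called them (A, “Attacker”; P, “Parental”; F, “Father”; M, “Mother”). White cells had no read; only the columns at 145658 and 198653 bp hold reads of 4 or more animals in both groups compared.

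Where coverage was better, no cytosine of Gpr39 passed an adjusted test in the 3 comparisons tested. A cytosine counted as well covered where 4 or more animals of each group had 10 or more reads. “Attacker” vs “Parental” had 30 such cytosines, “Parental” vs “Father” had 19 and “Father” vs “Mother” had 12. None had an adjusted p under 0.05 with a difference over 15% in the DSS test, and over the genome 0.000237%, 0.000168% and 0.000930% of well-covered cytosines did. At an unadjusted p under 0.05 the count was 0 in Gpr39 in each of the 3, and the genome shares were 0.126%, 0.154% and 0.221%. The largest fitted differences among them were 42.8, 36.95 and 41.4 percentage points, and why these did not pass was not tested.

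The 4 cytosines that all animals covered with 10 or more reads lie as pairs toward each end of the gene, and they show how far animals of a group can differ. The cytosine 16080 bp into the gene was highly methylated, at 89.4% ± 12.2 (SD, n = 23). The cytosine 35 bp on, at 16115 bp, ranged from 0% to 100%, at 68.6% ± 35.9 (SD, n = 23), with 3 animals at 0% and 8 at 100%. Levels there were 69.9%, 97.8% and 100% in “Attacker” (lowest, median, highest), 27.5%, 43.0% and 100% in “Parental”, and 0%, 89.9% and 100% in “Mother”. The 5 “Father” animals were at 0% in 2 animals, at 49.5% in 1 and at 100% in 2. The pair 194514 and 194549 bp into the gene was weakly methylated, at 16.7% ± 13.95 and 6.10% ± 8.29 (SD, n = 23), with up to 48.4% in a “Father” animal and 24.5% in an “Attacker”. These last 2 cytosines had 62 to 287 reads per animal.

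The mean level of Gpr39 over these 4 cytosines, none of them in the DMR, did not separate the groups. It was 51.0% ± 7.76 in “Attacker” (SD, n = 6), 45.2% ± 10.96 in “Mother” (n = 6), 42.6% ± 18.1 in “Father” (n = 5) and 41.5% ± 8.90 in “Parental” (n = 6). “Attacker” values were 43.7%, 48.2% and 63.6% (lowest, median, highest), “Mother” 24.5%, 48.7% and 53.9%, and “Parental” 31.3%, 39.3% and 54.2%. The 5 “Father” animals were at 25%, 26.5%, 40.9%, 52.9% and 67.6%, so all groups overlapped and no neighbours in this order differed beyond their spread. “Attacker” exceeded “Parental” by 9.48 percentage points (exact permutation test, two-sided, p = 0.0801, adjusted p = 0.24 over 3 comparisons). The p was 0.0303 without “Parental” 2, and the difference was 3.66 percentage points over 26 partly covered cytosines (exact permutation p = 0.40). Most of the 9.48 came from the cytosine at 16115 bp, where the “Attacker” and “Parental” means were 90.8% and 56.1%. At 16080 bp they went the other way, at 82.9% and 91.3%. They were 21.3% and 14.1% at 194514 bp and 9.05% and 4.65% at 194549 bp. “Parental” minus “Father” was -1.05 percentage points (exact permutation p = 0.896) and “Father” minus “Mother” -2.65 (exact permutation p = 0.753). “Attacker” minus “Father” was 8.43, given without a test. Adjusted over 9484 genes, the 3 permutation p-values were all 1.0. At an unadjusted exact permutation p under 0.05 stood 3.86%, 3.45% and 4.39% of genes in “Attacker” vs “Parental”, “Parental” vs “Father” and “Father” vs “Mother”.

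**Figure D4:**
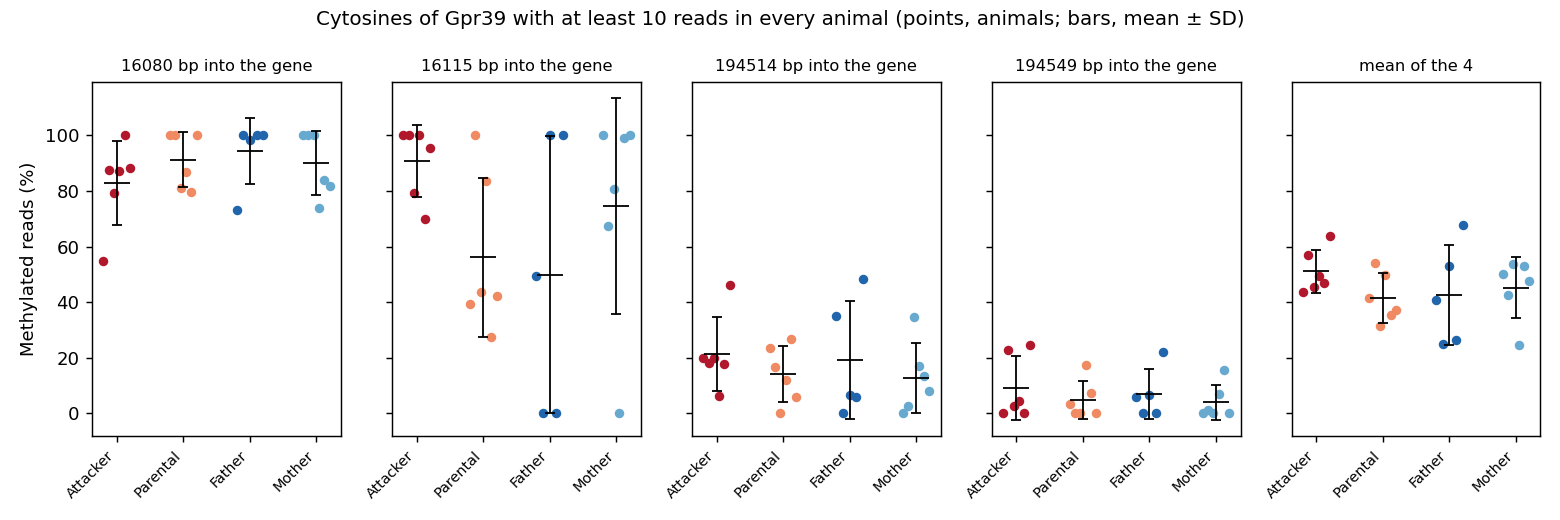
Methylation level (%) of each animal (points) with the mean and SD of its group (bars) at the 4 cytosines of Gpr39 that every animal covered with 10 or more reads, and the mean of the 4. Points of all groups overlap in each panel; the level 16115 bp into the gene covers the whole range from 0% to 100%.

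Against other genes, Gpr39 was high in level and thin in coverage. Its mean level was above that of 95% of the 9484 genes with a value, whose median was 1.14%, and its 4 cytosines compare with a median of 16 per gene. The SD within groups, 12.1 percentage points, was near the median of 12.1 among 226 genes with 2 to 10 such cytosines and a mean level of 30% to 60%. The 4 genes most alike over the 23 animals, among 7933 with at least 5 such cytosines, were Ttc29, Ccdc148, Cdc34 and Arsj. Their mean absolute difference from Gpr39 was 8.60 to 9.21 percentage points, and their group means lay between 37.4% and 50.3%.

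Methylation differed strongly along the gene. Neighbours within 100 bp formed 15 clusters of at least 5 cytosines, which held 182 of the 310. The cluster of 17 cytosines 197484 to 197672 bp into the gene, just inside the high-coordinate end, was among the most methylated, at 82.0% in “Attacker”, 93.7% in “Parental”, 92.9% in “Father” and 91.5% in “Mother”. “Attacker” 3 was at 7.14% there, from 14 calls, and all other animals were above 60%. Only 181 bp past the high-coordinate end, a cluster of 20 cytosines (198653 to 199087 bp) was at 16.9%, 23.2%, 38.55% and 16% in the same order. Its animals ranged from 0% to 47.2% in “Attacker”, from 17.1% to 55.4% in “Parental”, from 5.75% to 62.4% in “Father” and from 0.45% to 60.3% in “Mother”, all overlapping.

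Inside the gene, the cluster of 7 at 15909 to 16115 bp was at 88.7% in “Attacker”, 78.5% in “Parental”, 74.95% in “Father” and 83.8% in “Mother”. “Attacker” animals there ranged from 77.4% to 94.0% and “Parental” from 62.35% to 100%. “Father” animals ranged from 50% to 99.3% and “Mother” from 43.6% to 100%, so all groups overlapped. Further in, 2 neighbouring clusters of 20 cytosines 144591 to 145777 bp from the low-coordinate end were at 66.3% to 82.1% in every group. A cluster of 8 at 158115 to 158211 bp was at 93.3% in “Attacker”, 81.4% in “Parental”, 71.6% in “Father” and 80.8% in “Mother”. With at least 10 calls, “Attacker” animals ranged from 81.5% to 100% there and “Parental” from 65.1% to 100%. “Father” animals ranged from 43.75% to 100% and “Mother” from 36.8% to 100%, again overlapping. The clusters at 56928 to 57313 bp and 87694 to 88101 bp were intermediate, at 37.1% to 51.9% and at 32.7% to 48.2%. The cluster of 5 at 93224 to 93318 bp, which holds the cytosine at 0% in every animal, was at 16.6% to 36.3%. The 5 other clusters inside the window were read in at most 11 animals each.

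Lypd1, a gene for a GPI-anchored protein that modulates nicotinic acetylcholine receptors, ends 1 bp before Gpr39 begins and was a contrast in level. Over its 28 cytosines covered with 10 or more reads throughout, its mean level was 1.01% in “Attacker”, 1.24% in “Parental”, 0.70% in “Father” and 0.83% in “Mother”. It had no DMC in any comparison, with 98 or more cytosines compared in each. On the other side the nearest annotated gene, the pseudogene LOC101985217 at 28001 bp, had no cytosine read. The nearest protein-coding gene there, Slc35f5 at 103516 bp, had 1 DMC in each “Attacker” comparison, 5 between “Parental” and “Father”, and 3 between “Father” and “Mother”, among 63 to 66 cytosines. These were 1.59%, 1.59%, 7.58% and 4.55% of them, beside genome shares of 0.809%, 0.983%, 1.21% and 1.21%, and were not tested.

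The genes that surround GPR39 in zinc signalling mostly had low levels where they could be measured. Low levels were common among all genes too, with a median of 1.14% over the 9484 genes with a mean level. Of 47 genes on lists of its receptor family, zinc transporters, metallothioneins, coupling proteins, receptor partners and its neighbour, 25 had cytosines analysed here and 20 had a mean level. Over those 25, DMCs made up 0.554% of the cytosines that could be compared between “Attacker” and “Parental”, 1.05% between “Attacker” and “Father”, 1.20% between “Parental” and “Father” and 1.10% between “Father” and “Mother”. The genome shares, in the same order of comparisons, were 0.809%, 0.983%, 1.21% and 1.21%. The median difference of the 20 mean levels was -0.02, 0.18, 0.27 and -0.17 percentage points, against 0.05, 0.04, 0.00 and 0.00 over all genes. By the exact permutation test adjusted over all genes, none of the 20 passed in the 3 comparisons tested, and unadjusted 1, 0 and 1 had p under 0.05.

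The 2 genes were Slc30a1 and Prkca. Slc30a1 encodes the zinc exporter ZnT1 of the plasma membrane. Its level over 56 cytosines was 0%, 0.03% and 0.33% in “Attacker” (lowest, median, highest) and 0.21%, 0.61% and 1.08% in “Parental”, a difference of -0.52 percentage points (exact permutation p = 0.00433, adjusted p = 1.0 over all genes). Both groups were near 0, their ranges overlapped, and with cytosines of at least 5 reads in every animal the difference was -0.04 (exact permutation p = 0.918). Prkca encodes protein kinase C alpha, which acts downstream of Gq. Over 13 cytosines it was at 3.85%, 4.33%, 7.48%, 8.47% and 11.8% in the 5 “Father” animals and at 9.54%, 11.9% and 20.5% (lowest, median, highest) in the 6 “Mother”, which overlapped, a difference of -6.27 percentage points (exact permutation p = 0.0216, adjusted p = 0.97 over all genes).

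Among receptors of the family, Ghsr, the ghrelin receptor, had a single cytosine with enough reads, at 36.8% in “Attacker”, 24.9% in “Parental”, 20.2% in “Father” and 24.7% in “Mother”. Ntsr1, the neurotensin receptor, was at 3.52% to 4.46% in the 4 groups over 28 cytosines. Neither passed the permutation test in the 3 comparisons tested. The family had 4, 3, 3 and 6 DMCs in the 4 comparisons among 225 to 234 cytosines, or 1.72%, 1.28%, 1.29% and 2.67%, beside genome shares of 0.809%, 0.983%, 1.21% and 1.21%.

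The 5 measured zinc exporters of the Slc30 family had mean levels from 0% to 2.84% in every group. Of the 7 measured importers of the Slc39 family, 5 were at or under 3.93% in every group. The exceptions were Slc39a11, at 9.17% to 16%, and Slc39a4, at 13.2% to 40.0% from 1 cytosine. Slc39a11 had 1, 7, 6 and 6 DMCs among 187 to 199 cytosines, or 0.518%, 3.52%, 3.21% and 3.14%, beside the same genome shares. In “Father” vs “Mother” all 6 were higher in “Father”, a direction that 0.727% of cytosines showed over the genome. Its mean level, in contrast, was not higher in “Father”, with a “Father” minus “Mother” difference of -6.87 percentage points (exact permutation p = 0.0606, adjusted p = 1.0 over all genes).

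Of the coupling proteins and effectors, the G protein subunits Gna11 and Gna13 were at 0.44% to 0.73% in every group. Slc12a5, the gene of KCC2, was at 4.03%, 3.77%, 3.59% and 2.90% in “Attacker”, “Parental”, “Father” and “Mother” over 100 cytosines, and had 0, 2, 2 and 0 DMCs among 488 to 498 cytosines, or 0%, 0.409%, 0.405% and 0%, below the genome shares above. Galr1, a galanin receptor that can pair with GPR39, was at 0.92% to 2.01%. The 3 metallothioneins were not analysed here.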

How the data were processed

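RRBS libraries of 23 prairie voles were analysed. The authors trimmed reads (Trim Galore), aligned them (Bismark) to MicOch1.0 and deposited, for each cytosine, the count of reads and the count of methylated reads, without normalization. Counts were used as deposited, each strand on its own, with 64896224 to 129376223 calls per library.

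DMCs were called with a re-implementation (Python 3.11.15) of the 2-group test of DSS, fitted at every cytosine of the genome with a read in both groups. The tool itself was not run. Of 6 forms of weight, pseudocount and variance tried, the form whose fitted values came closest to the authors’ own fitted table was kept. That table lists the authors’ own DMC results, and none of its values is used in a result. A DMR needed at least 3 DMCs over more than 50 bp, with over 50% of its cytosines called. Fits without 1 animal used the window and 1 in 10 of the other cytosines. The script was tested on simulated data.

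Gene levels are means over cytosines that all animals covered with 10 or more reads, tested by exact permutation over animals, two-sided by doubling the smaller tail (smallest p 0.00216 for 6 against 6 and 0.00433 for 6 against 5), with Benjamini-Hochberg adjustment. Because each animal is 1 library, the permutation p-values measure the spread between animals. In the DSS test, a group with reads in only 1 animal took its spread from the prior. Spans came from a RefSeq table, in which 475 genes of a second sequence under the same chromosome name were left out.

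The gene, the lists and the tests were chosen with earlier results of these data known. Cytosines named are those of the DMR, those with adjusted p under 0.05 among the well covered, in each comparison the 3 DMCs with most reads in the thinner group (ties and the few others are also given), the 4 with 10 reads in all animals, and clusters of at least 5. Genes named are the neighbours, the 5 most alike (1 of them is not reported here) and list genes with a permutation p under 0.05; list genes named beyond these were chosen after their values were seen.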

Additional observations from a re-analysis of the deposited data

Results flagged for a closer look

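Within each group, the highest and lowest animal were compared with the rest by Dixon’s criterion over 32 groups of values, in which chance marks about 1 in 20, and 3 values stood apart. At 16080 bp into the gene “Father” 1 was at 73.3%, with the other “Father” animals at 98.5% to 100%. At 16115 bp “Mother” 4 was at 0.0%, with the others at 67.3% to 100%. At 194514 bp “Attacker” 6 was at 46.1%, with the others at 6.19% to 20%.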

How the results depend on the processing

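The DMC counts of Gpr39 (3 in “Attacker” against “Parental”, 11 in “Attacker” against “Father”, 8 in “Parental” against “Father” and 3 in “Father” against “Mother”) depended on the coverage asked for and on the weights. With 5 reads in 3 animals of each group they were 0, 1, 1 and 0. With well-covered cytosines and adjusted p-values they were 0 in each of the 3 comparisons tested. With weights scaled over animals with reads they were 20, 27, 12 and 13. With a pseudocount of 0.5, chosen after seeing the data, they were 1, 11, 7 and 0, and with merged strands 3, 5, 5 and 2. Leaving out each animal gave 2 to 9, 9 to 14, 4 to 10 and 1 to 5, not always at the same cytosines. Without “Father” 5, 3 of the 11 “Attacker” against “Father” DMCs remained, 7 could no longer be compared and 7 others were called. The cause was not tested beyond the smaller number of cytosines that each coverage minimum leaves. The mean level of “Attacker” minus “Parental” was positive in every setting, but some settings could not change it. With 5 reads in every animal, the DMR interval kept or 5 kb added on each side, the same 4 cytosines gave the same 9.48. It was 6.96 to 12.01 percentage points without each animal, 5.80 with 20 reads in every animal and 12.31 with pooled reads. Over the 175 cytosines of the window compared, the median difference was -3.02 percentage points. The mean level of “Attacker” minus “Father” was 4.04 to 14.7 without each animal, 2.16 with 20 reads, 3.66 with merged strands and 14.9 with pooled reads, against 8.43. Neither other difference had a stable sign. “Parental” minus “Father” became 2.61 with pooled reads and 0.12 over partly covered cytosines (a setting chosen after seeing the data), and ran from -5.44 to 5.21 without each animal, positive without “Parental” 3, “Parental” 5, “Father” 3 or “Father” 5. “Father” minus “Mother” became 4.78 with 20 reads in every animal, 3.65 with pooled reads and 0.64 over partly covered cytosines, and ran from -8.91 to 1.74, positive without “Father” 2 or “Father” 4. Of the list genes, 0 had p under 0.05 in “Attacker” vs “Parental” with 5 reads, against 1.

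The replicate numbers shared by the groups do not come from shared animals, and same-numbered animals of different groups correlated at -0.023 to 0.057, within the -0.046 to 0.058 of other pairs. As a replicate block (exact sign-flip test) they gave 9.48 for “Attacker” minus “Parental” (exact p = 0.0625), 5.91 for “Attacker” minus “Father” without a test, -0.14 for “Parental” minus “Father” (exact p = 1.0) and -2.22 for “Father” minus “Mother” (exact p = 0.688), with no call changed. Depth limits most values: a level of 0% in 13 reads has a Wilson 95% upper limit of 22.8%, by counting alone.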
